A study of Mus musculus with 18 samples.

Results

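The genes described here are markers of the cells that wrap or line the outside of brain vessels: the pericyte markers Pdgfrb, Rgs5, Anpep, Kcnj8 and Abcc9, the smooth muscle markers Acta2, Tagln and Myh11, and the fibroblast markers Col1a1 and Dcn. They were taken by symbol, 10 of the 36172 genes in the deposited expression matrix. The question asked of them was whether the enrichment of vessel transcripts in the tagged-ribosome fraction extends beyond the endothelium. 9 of the 10 passed the filter on low counts and were tested among 14803 genes. Acta2, the smooth muscle actin gene, was listed at 0 in all 18 libraries and could not be tested. No other gene in the matrix overlapped its position, and 12.3% of the 22013 protein-coding genes (2697 genes) were likewise listed at 0 in every library. The cause of the missing Acta2 reads was not tested.

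All mice were of the genotype Cx3cr1-Cre/Ert2+; NuTRAP+, in which tamoxifen, given at about 3 months of age, lets the Cx3cr1 promoter switch on a GFP-tagged ribosomal protein. At 3 to 4 weeks after tamoxifen the mice received 5 mg/kg lipopolysaccharide (LPS) or vehicle (PBS) intraperitoneally, and brain was taken 24 h later. From each mouse, a hemisected brain gave an input library (RNA of the homogenate's supernatant after centrifugation) and a positive library (RNA bound to anti-GFP beads). The groups were therefore Input PBS (n = 4), Positive PBS (n = 4), Input LPS (n = 4 after the exclusion below) and Positive LPS (n = 5). The Cx3cr1 promoter marks microglia and also other Cx3cr1-expressing cells such as border macrophages, so the positive fraction is not limited to microglia by design. The PBS group held 2 female and 2 male mice and the LPS group 4 female mice and 1 male mouse. Depth was 22968939 to 35123345 estimated counts per library, with 17767 to 18642 genes detected, except for the input of LPS animal 271, which held 1252 counts and was left out. Each animal is a biological replicate by the study's design.

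Pericytes sit in the basement membrane of capillaries, where the receptor PDGFRβ, stimulated by endothelial PDGF-B, keeps them attached. Smooth muscle cells encircle arterioles and carry the contractile apparatus, and fibroblasts occupy the meninges, the choroid plexus stroma and the sheaths of larger vessels, where they lay down collagen. Pericytes and smooth muscle cells together are called mural cells, and neither they nor fibroblasts are known as Cx3cr1-expressing cells.

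RefSeq promoter windows on GRCm38.p6 were at hand for 5 of the 10 members (Rgs5, Anpep, Kcnj8, Abcc9 and Acta2). The 250 bases upstream of the start are shown for the 3 whose transcripts changed with LPS in the positive fraction: Rgs5 and Abcc9, which fell, and Anpep, which rose. They lie at chr1:169655251-169655500 (plus strand) for Rgs5, chr7:79848211-79848460 (minus strand) for Anpep and chr6:142702275-142702524 (minus strand) for Abcc9, each written 5′ to 3′ along the gene. Capitals mark matches to the E-box CAGCTG and the GC box GGGCGG on either strand.
Rgs5: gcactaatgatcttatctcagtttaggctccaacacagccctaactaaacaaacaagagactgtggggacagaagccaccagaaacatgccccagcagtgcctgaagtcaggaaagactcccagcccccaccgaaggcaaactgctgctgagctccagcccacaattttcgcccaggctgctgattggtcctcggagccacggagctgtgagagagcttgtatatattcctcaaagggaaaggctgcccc
Anpep: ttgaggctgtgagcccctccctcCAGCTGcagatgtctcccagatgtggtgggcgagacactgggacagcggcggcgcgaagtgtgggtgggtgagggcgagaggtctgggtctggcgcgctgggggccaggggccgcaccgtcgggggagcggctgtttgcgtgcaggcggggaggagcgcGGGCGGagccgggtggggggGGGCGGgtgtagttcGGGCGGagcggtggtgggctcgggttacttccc
Abcc9: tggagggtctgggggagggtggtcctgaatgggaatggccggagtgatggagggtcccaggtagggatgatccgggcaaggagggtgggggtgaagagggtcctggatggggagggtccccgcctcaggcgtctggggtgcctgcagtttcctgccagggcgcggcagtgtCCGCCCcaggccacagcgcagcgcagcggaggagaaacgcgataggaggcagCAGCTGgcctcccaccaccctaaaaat
The Rgs5 window held no match to any of 5 patterns searched on both strands, which were these 2 plus the ETS and PU.1 core AGGAAGT, the TATA box TATAAA and the CArG box of smooth muscle genes. The Anpep window held 3 GC boxes and 1 E-box, and the Abcc9 window 1 of each. Among 32851 promoter windows of the same length, 32.7% held the GC box, 13% the E-box, 12.4% TATAAA, 7.69% AGGAAGT and 1.47% the CArG box. GC content was 53.6% for Rgs5, 72.8% for Anpep and 66.8% for Abcc9. The RefSeq start of Anpep lies 5858 bases upstream of the 5′ end of the gene model in the deposited matrix (chr7:79821803-79842352, build mm10), so the window shown belongs to the RefSeq start alone. Kcnj8 and Abcc9, which encode the pore and the sulfonylurea-receptor subunit of the vascular ATP-sensitive potassium channel, are neighbours on the minus strand of chromosome 6, separated by 16505 bases.

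Values below are normalised read counts, that is estimated counts divided by a median-based size factor for the library, and differences are log2 ratios from edgeR's quasi-likelihood fit over all 17 libraries with standard errors (SE). A gene is named as called when its Benjamini-Hochberg adjusted p was under 0.05 and its log2 ratio over 0.322 in size. Since scaling sets the median gene near 0, a positive over input value says how a transcript stood relative to the other transcripts, and in these bulk libraries fewer cells of a type and less RNA per cell cannot be told apart. As the reference for targeting, Cx3cr1 was 18.5-fold and Csf1r, the microglial growth factor receptor, 18.7-fold higher in the positive fraction than in input of PBS animals.

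None of the 9 tested mural and fibroblast members was called higher in the positive fraction of PBS animals, and 2 were called lower, where 21% of all tested genes were called higher and 18.8% lower. Their median was a log2 ratio of -0.24, beside -0.00 for all tested genes. Both of the lower members were the fibroblast genes. In the paired fit, with the animal as a block, 4 members were called, Myh11 higher (1.0, adjusted p = 0.0199) and Pdgfrb lower (-0.36, adjusted p = 0.0112) besides the fibroblast genes. The shares of 21% and 18.8% belong to the unpaired fit, so they are no background for these 4. Of 20 endothelial genes measured the same way, 17 were called higher, with a median of 1.13, led by Eng (endoglin, 2.29) and Pecam1 (CD31, 1.73). The same was counted in longer lists for these cells. Of 13 other pericyte genes 0 were called higher and 3 lower (median -0.35), of 11 other smooth muscle genes 1 higher and 1 lower (median -0.13), and of 15 other fibroblast genes 2 higher and 8 lower (median -0.97). The difference between the endothelial list and these lists was described by counts and medians and was not itself tested.

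**Figure D1:**
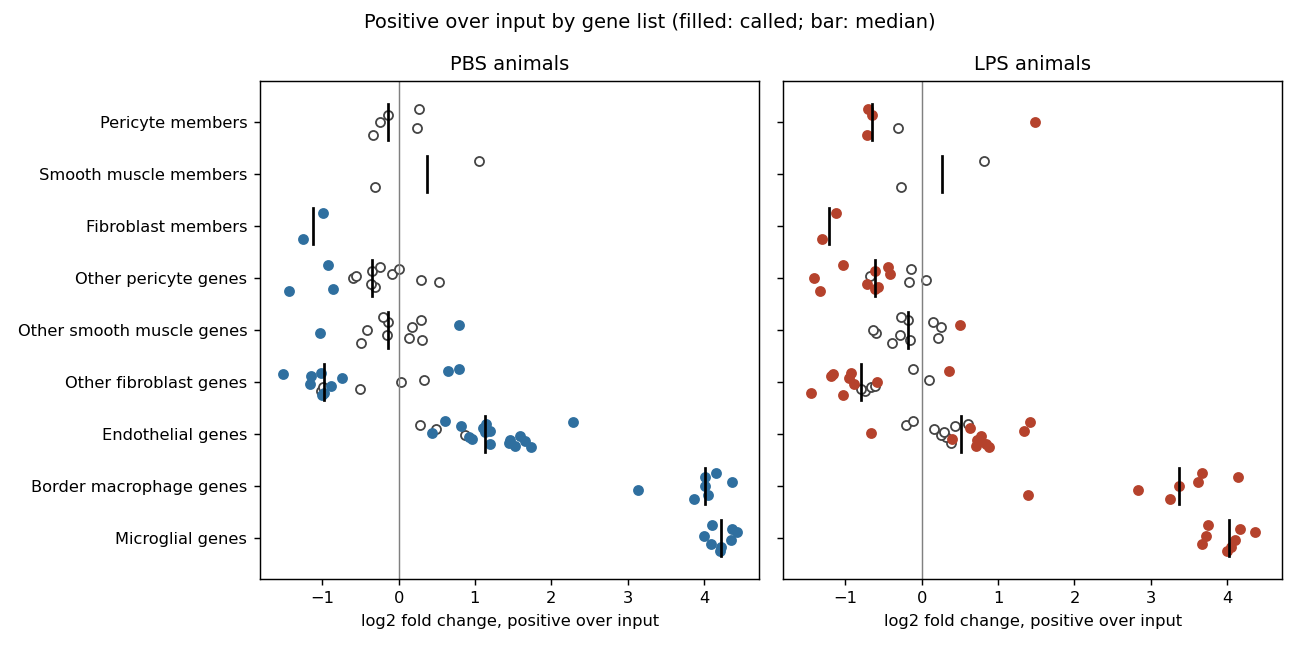
Log2 fold change of positive over input (x axis) for each tested gene of 9 lists (rows), in PBS animals (left) and LPS animals (right); filled points were called, open points were not, and black bars are list medians. In PBS animals the endothelial median is 1.13 and the microglial median 4.22, while the pericyte and fibroblast members have medians of -0.14 and -1.12.

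Among the pericyte members in PBS animals, Pdgfrb, the PDGF-B receptor, read 549, 629.7, 515 and 497 in the 4 input libraries and 372, 590.1, 460.3 and 316 in the 4 positive libraries. The groups overlapped, with the positive value below the input value in each of the 4 animals. The log2 ratio was -0.33 (SE 0.15, adjusted p = 0.0791), which was not called. Pdgfrb was called lower in 6 of 29 alternatives. It was called lower with the animal as a block (-0.36, adjusted p = 0.0112), in female animals (-0.60, adjusted p = 0.0103) and without the Positive PBS library of animal 272, the highest of its group (-0.52, adjusted p = 0.00504). Pdgfrb was likewise called lower with sex as a term (-0.35, adjusted p = 0.0358). Total count scaling (-0.45, adjusted p = 0.0193) and all 18 libraries (-0.46, adjusted p = 0.0143) gave the same call. Both settings also shifted the median gene of this comparison to -0.12, a shift that these 2 values include.

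Rgs5, a regulator of G-protein signalling that is abundant in pericytes, read 649, 543.5, 484 and 526 in Input PBS and 666, 851, 641 and 446 in Positive PBS. The positive library was higher in 3 of the 4 animals and lower in animal 506, and the log2 ratio of 0.24 (SE 0.15, 95% interval -0.09 to 0.58, adjusted p = 0.207) was not called. It was called higher only when the positive library of animal 506 was left out (0.39, adjusted p = 0.0282), and was -0.08 in female animals. The remaining pericyte members were not called either: Anpep (aminopeptidase N, also carried by myeloid cells) had a log2 ratio of -0.24 (SE 0.28), Kcnj8 of -0.14 (SE 0.24) and Abcc9 of 0.26 (SE 0.20). For Abcc9 the positive libraries, at 299, 287, 242 and 253, all lay above the input libraries, at 226, 210.0, 231 and 235, although the difference was not called (adjusted p = 0.286).

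Of the smooth muscle members, Myh11, the smooth muscle myosin heavy chain, had the highest positive over input value of all members in PBS animals. It read 83.6, 74.9, 72.6 and 68.5 in Input PBS and 234, 94.7, 143 and 152 in Positive PBS, so every positive library lay above every input library. Its log2 ratio was 1.05 (SE 0.45, 95% interval 0.07 to 2.03, adjusted p = 0.0653), just short of the call. In this comparison 25.2% of all tested genes had positive libraries wholly above input and 20.5% wholly below. Myh11 was called in 7 of 28 alternatives. These included the animal as a block (1.0, adjusted p = 0.0199), DESeq2 (1.05, adjusted p = 0.0381) and a fit of these 8 libraries alone (1.04, adjusted p = 0.00421). The others were 4 of the 17 fits that left out a library. They left out the Positive PBS library of animal 272 (1.23, adjusted p = 0.0466) or the Positive LPS library of animal 266, 267 or 271 (each 1.05, adjusted p = 0.0383, 0.0493 and 0.0466). The Positive LPS libraries are not part of this comparison, and the ratio stayed at 1.05 without them. Tagln, the actin-binding protein transgelin, did not move with Myh11: its log2 ratio was -0.31 (SE 0.23, adjusted p = 0.297), with a positive library below input in 3 of the 4 animals. Tagln lies opposite Pcsk7 on the other strand, and the libraries were strand-specific. Of the other smooth muscle genes, Mylk (myosin light chain kinase, which many cell types express) was called higher at 0.79 and Lmod1 (leiomodin) lower at -1.03.

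The fibroblast members were depleted. Dcn, the matrix proteoglycan decorin, read 628, 561, 597 and 565 in Input PBS and 294, 260 (animal 272), 316 and 315 in Positive PBS, so each positive library held less than each input library. The log2 ratio was -0.99 (SE 0.14, adjusted p = 1.11e-05). Col1a1, the alpha chain of type I collagen, read 448, 319, 309 and 339 in input and 188, 153, 91.3 and 159 in the positive fraction, again without overlap. Its log2 ratio was -1.25 (SE 0.27, adjusted p = 0.00115), which missed the call in female animals alone (-1.18, adjusted p = 0.062). Among the other fibroblast genes, the transporter Slc6a13 (-1.52) and lumican, Lum (-1.16), were lowest, whereas Mgp (matrix Gla protein, 0.79) and Igf2 (insulin-like growth factor 2, 0.64) were called higher. For scale, oligodendrocyte and choroid plexus or ependymal lists had medians of -2.30 and -1.44 in the same comparison, and astrocyte and neuron lists -0.17 and 0.04.

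**Figure D2:**
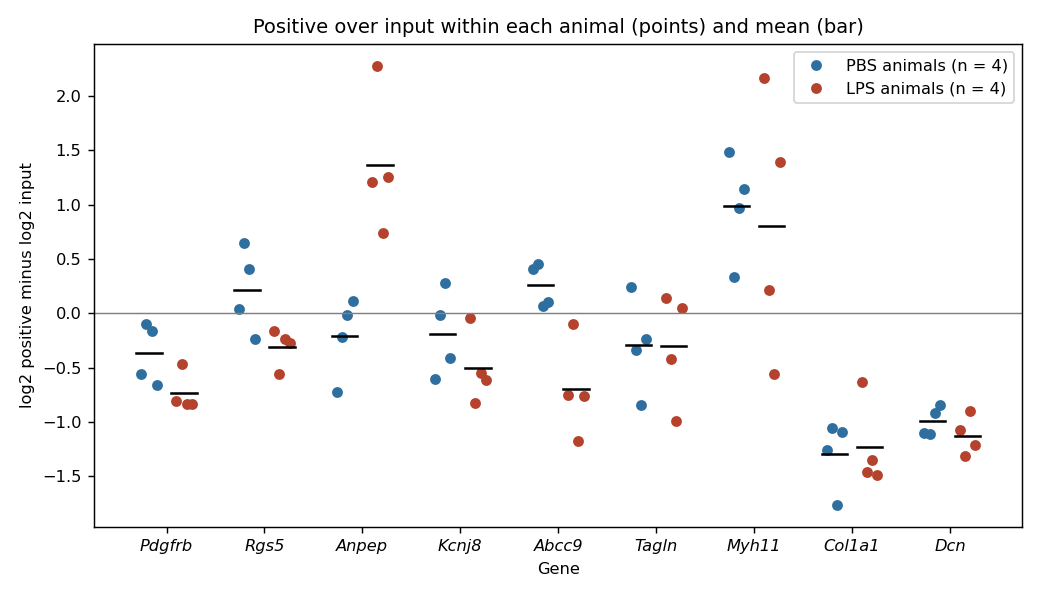
Difference between the log2 normalised count of the positive and the input library of the same animal (y axis) for each tested member (x axis), with PBS animals in blue and LPS animals in red, n = 4 each; black bars are means. All 8 animals lie below 0 for Pdgfrb, Col1a1 and Dcn, whereas the 4 LPS animals lie above 0 for Anpep.

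In LPS animals 5 of the 9 tested members were called lower in the positive fraction than in input and 1 higher, where 25.8% of all tested genes were called lower and 27.6% higher. The member median was -0.65 on the log2 scale, beside -0.03 for all tested genes. Pdgfrb (-0.72, SE 0.14, adjusted p = 0.000261), Abcc9 (-0.71, SE 0.19, adjusted p = 0.00322) and Kcnj8 (-0.65, SE 0.23, adjusted p = 0.02) joined Col1a1 (-1.30, SE 0.26) and Dcn (-1.13, SE 0.12) on the lower side. The Kcnj8 call was lost without the input library of animal 267 (-0.50, adjusted p = 0.0858), which had the highest Kcnj8 value of its group, in female animals alone (-0.56, adjusted p = 0.0607) and without animals 506 and 507 (-0.67, adjusted p = 0.0648). Rgs5 was not called (-0.32, SE 0.15, adjusted p = 0.0759), but was once the positive library of LPS animal 270 was dropped (-0.37, adjusted p = 0.0486). Rgs5 was also called lower with total count scaling (-0.49, adjusted p = 0.00957) and with all 18 libraries (-0.42, adjusted p = 0.022), making 3 of 29 alternatives. The last 2 settings shifted the median gene of this comparison to -0.21 and -0.11, a shift that these values include. Anpep was the member called higher (1.48, SE 0.26, adjusted p = 9.21e-05), although the positive library of animal 270 (139.8) lay below the highest input (143).

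Tagln (-0.28, SE 0.22) was not called in LPS animals either. Myh11 (0.81, SE 0.44, adjusted p = 0.118) was not called, but was in 3 of 28 alternatives. These were the animal as a block (0.86, adjusted p = 0.0468) and leaving out the positive library of LPS animal 267 or 271 (1.02 each, adjusted p = 0.0493 and 0.0478). The Myh11 values varied. Its 5 positive libraries split widely, at 192, 38.3, 54.3, 37.6 and 159, over input values of 42.8, 33.1, 80.0 and 60.4. Endothelial genes in the same animals were called higher for 10 of 20 and lower for 1 (median 0.52), the lower gene being Slco1c1, a thyroid hormone transporter of the blood-brain barrier (-0.66). The other pericyte genes were called lower for 9 of 13 and higher for 0 (median -0.61), with Atp13a5 at -1.42 and Cspg4, the proteoglycan NG2, at -1.33. Cspg4 and Pdgfra are also hallmark genes of oligodendrocyte precursors. The other smooth muscle genes had 1 higher call of 11 and no lower call (median -0.18), and the other fibroblast genes 1 higher and 8 lower of 15 (median -0.80).

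How the same genes responded to LPS was read separately in both fractions. Among the positive libraries 2 of the 9 tested members were called higher (Anpep and Dcn) and 2 lower (Rgs5 and Abcc9), where 19% of all tested genes were called higher and 14.9% lower. In input 1 was called higher (Dcn) and 1 lower (Rgs5), where the shares were 7.16% and 5.26%. The member medians were -0.30 and 0.10 (positive, input), beside 0.01 and 0.00 for all tested genes. Both contrasts use LPS and PBS libraries of the same animals, so they are not independent of each other.

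**Figure D3:**
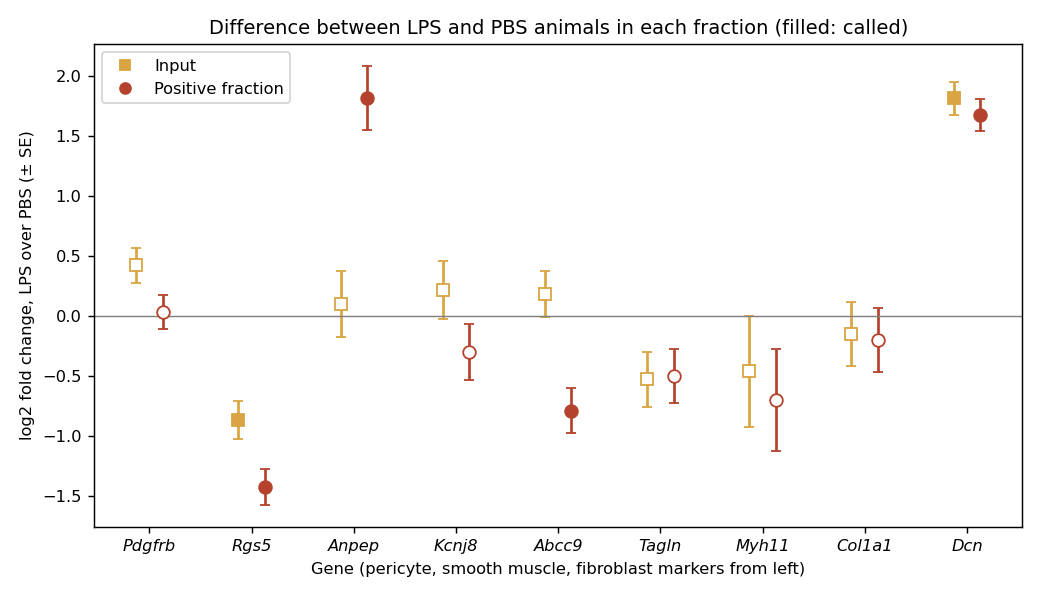
Log2 fold change of LPS over PBS (y axis, ± SE) for each tested member (x axis) in input (yellow squares) and in the positive fraction (red circles); filled symbols were called. Dcn is at 1.81 and 1.68 and Rgs5 at -0.87 and -1.43, while Anpep is at 0.10 in input and 1.81 in the positive fraction.

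Rgs5 fell with LPS in both fractions. In input it went from the PBS values above to 275, 302, 330.4 and 299, and in the positive fraction to 247, 205, 280.1, 232 and 248, without overlap between treatments in either. Libraries of LPS animals lay wholly above those of PBS animals for 17.1% of all tested genes and wholly below for 13% in the positive fraction, and for 12.6% and 11.5% in input. The mean of Input PBS was 551 ± 70.2 (SD, n = 4) against 302 ± 22.5 (SD, n = 4) in Input LPS, a log2 ratio of -0.87 (SE 0.16, adjusted p = 0.000826). The mean of Positive PBS was 651 ± 166 (SD, n = 4) against 242 ± 27.3 (SD, n = 5) in Positive LPS, a log2 ratio of -1.43 (SE 0.15, adjusted p = 6.94e-07). Both calls held under every alternative run, and the fall was not called different between fractions (-0.56, SE 0.21, adjusted p = 0.14), except without the Positive PBS library of animal 506 (-0.70, adjusted p = 0.0284).

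Dcn rose with LPS in both fractions and by similar amounts. Input LPS held 2325, 2189, 1460.4 and 2284 and Positive LPS 1103, 880.5, 783, 976 and 985, each above all PBS libraries of the same fraction. The group means were 588 ± 31.5 and 2065 ± 407 in input (SD, n = 4 each), a log2 ratio of 1.81 (SE 0.13, adjusted p = 6.97e-08). Among positive libraries they were 296 ± 26.2 (SD, n = 4) and 946 ± 120 (SD, n = 5), a log2 ratio of 1.68 (SE 0.13, adjusted p = 2.72e-08). The input library of animal 270 stood below the other 3 LPS inputs and still above every PBS input. The difference between fractions was -0.14 (95% interval -0.53 to 0.26). Col1a1, by contrast, was not called in either (log2 ratio -0.15, SE 0.26, in input and -0.20, SE 0.27, among positive libraries), so the 2 fibroblast members did not respond alike.

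**Figure D4:**
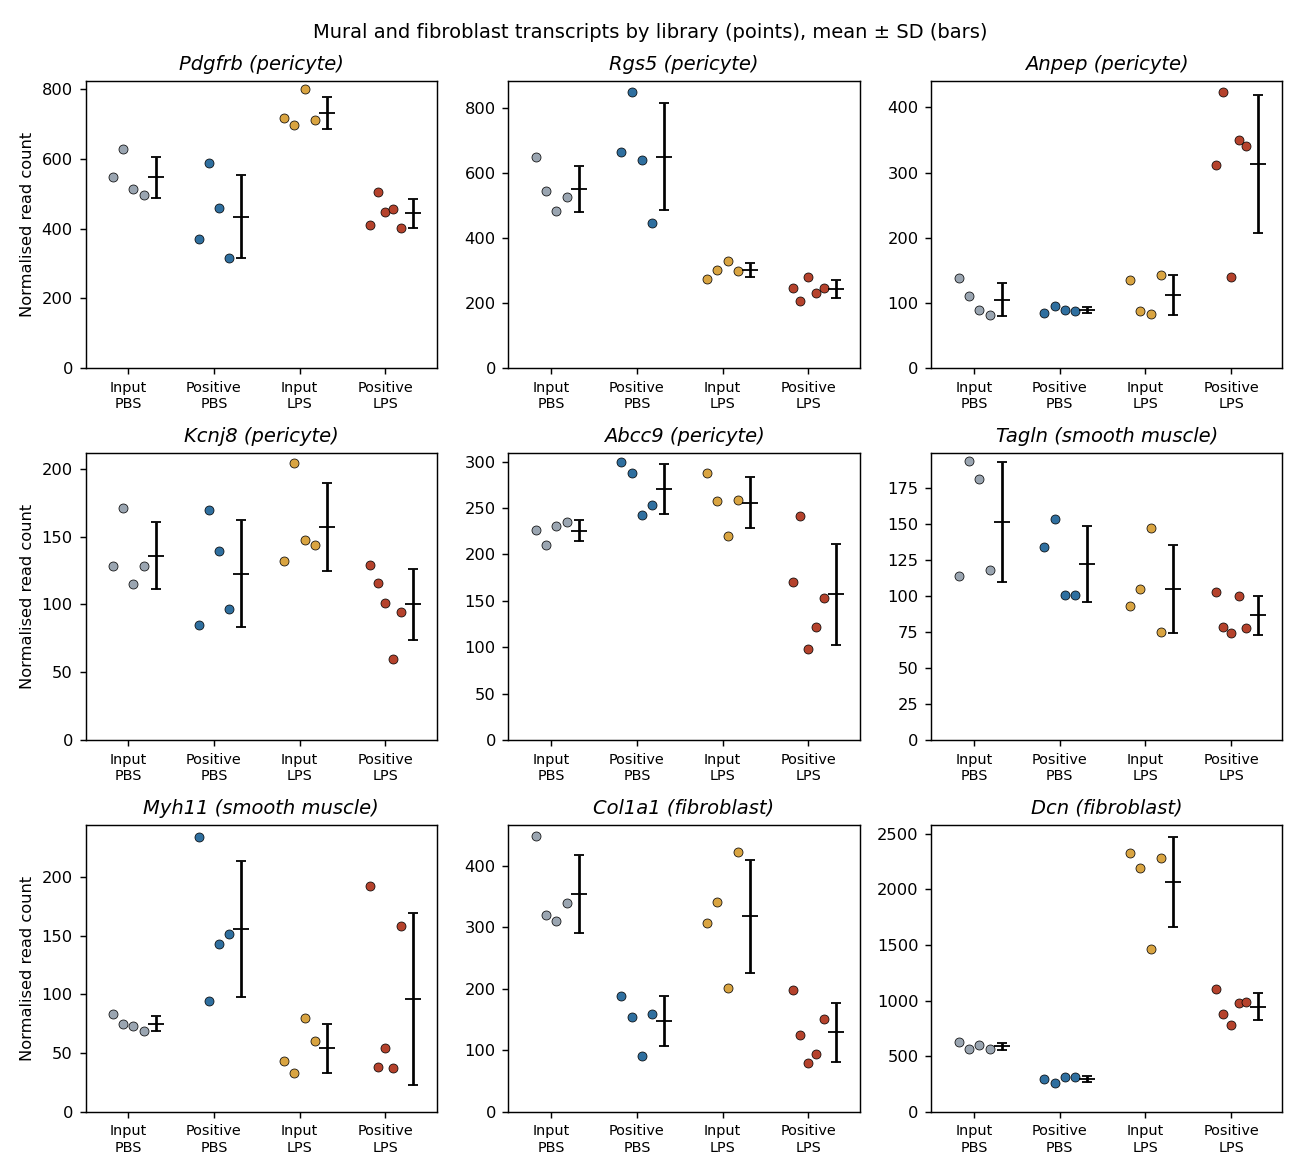
Normalised read count (y axis, linear from 0) of the 9 tested members in each library (points) of the 4 groups (x axis), with the group mean ± SD beside the points, n = 4, 4, 4 and 5. Anpep reaches 423 in Positive LPS while the highest library of the other groups is at 143, and Dcn in Input LPS starts at 1460.4 while the highest Input PBS library is at 628.

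Anpep rose in the positive fraction, from 83.9, 95.7, 88.8 and 87.9 in PBS animals to 312, 423, 139.8, 350.1 and 341 in LPS animals, with no overlap. The log2 ratio was 1.81 (SE 0.27, adjusted p = 3.55e-05). In input it read 139, 111, 89.7 and 81.3 in PBS animals and 135, 87.3, 83.8 and 143 in LPS animals, overlapping groups with a log2 ratio of 0.10 (SE 0.27, 95% interval -0.49 to 0.69). The LPS effect was called larger in the positive fraction by 1.72 (SE 0.38, adjusted p = 0.00884), a comparison in which 5.46% of all tested genes were called higher and 1.42% lower. That call was lost in female animals alone (1.60, adjusted p = 0.268) and held in each of the 17 fits that left out a library. Since myeloid cells also carry Anpep, monocyte and neutrophil markers were read beside it. The summed normalised count of 8 such genes was 177 to 363 in Positive PBS and 462 to 1133 in Positive LPS. In input it was 177 to 475 in PBS animals and 514 to 1361 in LPS animals. None of the 8 was at 0 in all 17 libraries. The sums were higher in LPS animals in both fractions, but the genes of the list did not move together: in the positive fraction 4 of 6 tested were called higher and 1 lower. S100a8, a calcium-binding protein of neutrophils and monocytes, went from a mean of 15.9 to 415 there and made up most of the rise in the sum, whereas Ccr2, the chemokine receptor of monocytes, fell from 43.6 to 8.45 (log2 ratio -2.33, adjusted p = 0.000139). The part of these cells in the Anpep values was not tested.

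Abcc9 fell in the positive fraction, from 299, 287, 242 and 253 to 171, 241, 97.6, 122 and 153, with animal 267 only just below the lowest PBS library. The log2 ratio was -0.79 (SE 0.19, adjusted p = 0.0026), called under every alternative run. Input values were 287, 257, 219.9 and 258 in LPS animals, with a log2 ratio of 0.18 (SE 0.19). The difference between fractions was -0.97 (SE 0.27, adjusted p = 0.0352), and it did not survive the loss of most single libraries: the call was lost in 12 of 17 such fits (log2 values -0.89 to -1.0), and held only when what was dropped was the Positive LPS library of animal 266, 267 or 270, the Positive PBS library of animal 273 or the Input LPS library of animal 270. Its channel partner Kcnj8 had values of the same sign that were not called, -0.30 (SE 0.23) in the positive fraction and 0.21 (SE 0.24) in input. Abcc9 overlaps the gene 5330439B14Rik on the other strand.

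Pdgfrb in input read 717, 697, 800.0 and 713 in LPS animals, all above the PBS inputs, with a log2 ratio of 0.42 (SE 0.15, adjusted p = 0.0686) that was not called. Pdgfrb was called higher there in 7 of 29 alternatives. It was called with the animal as a block (0.43, adjusted p = 0.0301), by DESeq2 (0.42, adjusted p = 0.0382) and without the Positive PBS library of animal 272 or 506 (0.42 each, adjusted p = 0.0272 and 0.039). The same call was made in a fit of the compared libraries alone (0.41, adjusted p = 0.0131). It was also made with sex as a term (0.49, adjusted p = 0.0196) and with total count scaling (0.45, adjusted p = 0.0476). In the positive fraction the LPS libraries, at 411, 506, 448, 457 and 401, lay within the range of the PBS libraries (log2 ratio 0.03, SE 0.14). The smooth muscle members had lower values in LPS animals that were not called: Tagln by -0.53 (SE 0.23) in input and -0.50 (SE 0.22) in the positive fraction, and Myh11 by -0.46 (SE 0.46) and -0.70 (SE 0.42). The Myh11 value in the positive fraction was called when the positive library of LPS animal 266 was dropped (-1.10, adjusted p = 0.0368), the highest of its group.

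The wider lists are read against the shares of all tested genes given above, 19% higher and 14.9% lower for positive libraries, 7.16% and 5.26% for inputs. Of 13 other pericyte genes, LPS raised 1 and lowered 5 in the positive fraction, against 1 and 3 in input. The gene that rose was Ifitm1, an interferon-induced membrane protein (2.49 and 2.59), and those that fell included Vtn, the plasma and pericyte protein vitronectin (-1.06 and -0.70), and Cspg4 (-0.75 and -0.85). Lowest in the positive fraction were Higd1b (-1.34, from a mean of 57.1 to 22.8 normalised counts) and Atp13a5 (-1.19). Of 11 other smooth muscle genes 0 rose and 4 fell in the positive fraction, and 0 rose and 2 fell in input, led by the light chain gene Myl9 (-2.27 and -1.81). Of 15 other fibroblast genes 0 rose and 3 fell in the positive fraction, and 1 rose and 2 fell in input: fibromodulin, Fmod, fell by 1.84 and 1.60 on the log2 scale, Igf2 by 0.87 and 0.59, and Col3a1 rose in input (1.07). Of the 20 endothelial genes 2 rose and 9 fell in the positive fraction (median -0.54), and 4 rose and 3 fell in input (median 0.12). Like that of Abcc9, their difference between fractions was below 0 for 19 of 20 (median -0.68), with 4 called lower.

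Genes of the PDGF pathway and the channel subunits were also read as sets. Pdgfb, the endothelial ligand of the Pdgfrb receptor, was 2.01-fold higher in the positive fraction of PBS animals (log2 1.01, SE 0.14) and fell with LPS in both fractions (-0.89 in the positive fraction, -0.51 in input). Of the 6 PDGF genes, Pdgfrb included, 1 was enriched and 3 were depleted by the same call in PBS animals, where the shares of all tested genes were 21% and 18.8%. Pdgfra, the receptor of oligodendrocyte precursors and fibroblasts, was lowest at -1.83. Among the 4 genes of ATP-sensitive potassium channels, Abcc8, the subunit used in neurons, was called lower in the positive fraction (-1.09), and Kcnj11, the pore subunit that neurons use, fell with LPS in the positive fraction (-0.40). Of 8 vascular basement membrane genes, LPS raised 5 among positive libraries and 2 among inputs, and lowered none in either (medians 0.47 and 0.50), where 19% and 7.16% of all tested genes were called higher. Col4a1, a chain of type IV collagen, rose by 1.17 and 1.04 on the log2 scale in these fractions.

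Levels of the members were compared with each other per kilobase of summed exon length from the GENCODE annotation. In Input PBS the order was Rgs5 (121 ± 15.4), Dcn (101 ± 5.39), Pdgfrb (100.0 ± 10.7), Tagln (76.3 ± 20.9), Col1a1 (53.9 ± 9.77), Kcnj8 (53.4 ± 9.62), Abcc9 (26.9 ± 1.31), Anpep (25.4 ± 6.19) and Myh11 (9.86 ± 0.84), in normalised counts per kilobase (SD, n = 4). The ranges of neighbours in this order overlapped at every step except from Kcnj8 to Abcc9 and from Anpep to Myh11. In Input LPS Dcn led at 354 ± 69.7 and Rgs5 came after Pdgfrb at 66.4 ± 4.95. In Positive LPS Anpep, at 75.8 ± 25.5, stood behind Dcn and Pdgfrb alone, while in Positive PBS, at 21.5 ± 1.18, only Myh11 of the tested members was lower.

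The genes with the most similar profile over the 17 libraries were found by the root mean square difference of centred log2 values, among genes averaging 100 normalised counts or more. The nearest to Dcn was Serping1, the C1 inhibitor of complement (difference 0.16, against 0.999 for a flat profile), and the nearest to Anpep was Sod2, the mitochondrial superoxide dismutase (0.34 against 0.81). Fstl1 (follistatin-like 1) was nearest to Pdgfrb (0.15 against 0.36), Bgn, the proteoglycan biglycan, to Abcc9 (0.19 against 0.43), Khdrbs3 to Rgs5 (0.25 against 0.62) and Ttc39a to Kcnj8 (0.18 against 0.41). Ranbp3l was nearest to Col1a1 (0.23 against 0.77), Cdr2 to Tagln (0.26 against 0.41) and Nexn, nexilin, to Myh11 (0.53 against 0.83), the loosest match.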

How the data were processed

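Brain RNA from Cx3cr1-NuTRAP mice was sequenced as strand-specific, poly(A)-selected libraries. The deposited raw columns hold estimated counts per gene, 81.7% of the values above 0 not being whole, which the authors made in Strand NGS by directional alignment to mm10. The deposited log2 columns, normalised by the authors with DESeq, were not used. Estimated counts were rounded and tested with edgeR 4.0.16 (R 4.3.3, quasi-likelihood, 13 residual degrees of freedom) in 1 fit of 4 groups over 17 libraries. Genes with more than 20 normalised counts in every library of at least 1 group were kept. Size factors were medians of ratios (0.766 to 1.32, over 15766 genes). Calls needed a Benjamini-Hochberg adjusted p under 0.05 and a fold over 1.25. Members and gene lists were chosen with earlier results of these data known. Named genes were all members and, by rule, genes among the 2 highest and 2 lowest called of each list and comparison, the genes nearest to each member in profile, and Cx3cr1 and Csf1r.

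Input and positive libraries of an animal carry the same number in the labels and come from that mouse. Their deviations from the group means correlated at 0.162 to 0.519 over genes in all 8 animals. Libraries of different animals were not compared in this way, so these values cannot show by themselves that the numbers pair the libraries. Fits with the animal as a block were the paired alternative, with a consensus correlation of 0.445 where limma was used. Other alternatives were DESeq2 1.42.0, limma 3.58.1, other scalings and filters, subsets by sex or animal number, and leaving out each library. The script was tested on simulated data.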

Additional observations from a re-analysis of the deposited data

Results flagged for a closer look

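In 36 groups of 4 or 5 libraries (9 members by 4 groups), 1 value stood apart by Dixon's test, where chance flags about 1 group in 20. It was Dcn in Input LPS, where animal 270 held 1460.4 normalised counts and the other 3 inputs 2189 to 2325.

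The LPS effect was called different between the positive fraction and input for 2 of the 9 tested members by the interaction term of the edgeR fit. Of all tested genes 5.46% were called higher and 1.42% lower in this comparison. For Anpep the difference was 1.72 on the log2 scale (SE 0.38, adjusted p = 0.00884), called in 27 of 28 alternatives and lost in female animals alone. For Abcc9 it was -0.97 (SE 0.27, adjusted p = 0.0352), called in only 13 of 28 alternatives.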

How the results depend on the processing

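The 45 member results (9 members by 5 comparisons) were recomputed under 29 alternatives, 1291 values in all. Of these 1209 kept direction and side of the threshold, 29 gained a call, 20 lost one and 33 changed sign. All sign changes were of values that were not called. Scaling by total count and scaling over all 18 libraries moved the median gene of positive over input. In PBS animals it went from -0.00 to -0.12 and -0.12, and in LPS animals from -0.03 to -0.21 and -0.11. The share of calls that were higher went from 52.8% to 38% and 37.6% in PBS animals and from 51.7% to 35.2% and 43.2% in LPS animals, and no member gained a higher call in positive over input under either.

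Members called in PBS enrichment were 2, and 4 with the animal as a replicate block, Pdgfrb (-0.36) and Myh11 (1.0) being added, and 2 to 4 leaving out libraries. The shares of all tested genes given above are from the main fit alone. In LPS animals they were 6, and 5 to 7 leaving out libraries. LPS effects called 4 members in the positive fraction (4 to 5) and 2 in input (2 to 3). The difference between fractions called 2 members (1 to 2), but 1 with all 18 libraries, 1 without animals 506 and 507 and 0 in female animals (Anpep 1.60, adjusted p = 0.268). By DESeq2 it called 2. Among all genes, the LPS effect in input called 1060 genes higher and 779 lower, against a total of 1083 without animals 506 and 507 and 740 in female animals. The difference called 808 higher and 210 lower, against totals of 323 and 75 in those subsets, which hold fewer samples, and 1915 with the replicate block. Apart from Pdgfrb and Myh11 in the report, the paired fit changed no other member call.

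Signs turned in female animals for positive over input in PBS of Rgs5 (-0.076) and Tagln (0.026), the LPS effect on Kcnj8 in the positive fraction (0.078) and the difference for Tagln (-0.27). Without animals 506 and 507 they turned for Pdgfrb in the positive fraction (-0.058), Anpep in input (-0.15) and the difference for Tagln (-0.048) and Col1a1 (0.11). The difference for Tagln also turned under total count scaling (-0.030) and, with the replicate block, so did those for Tagln (-0.019) and Col1a1 (0.046). Leaving out libraries gave ranges that crossed 0 for Kcnj8 in PBS enrichment (-0.34 to 0.0017), Pdgfrb with LPS in the positive fraction (-0.093 to 0.22), Anpep (-0.044 to 0.26) and Col1a1 (-0.32 to 0.015) with LPS in input, and the difference for Tagln (-0.11 to 0.23), Myh11 (-0.64 to 0.028) and Col1a1 (-0.25 to 0.11). The cause was not tested. Myh11 was the lowest of the tested members per kilobase in each group, with under 100 normalised counts in 12 of 17 libraries. Its means were 74.9 in Input PBS, 54.1 in Input LPS, 156 in Positive PBS and 96.2 in Positive LPS. The SD was 8.53%, 38.2%, 37.2% and 76.5% of these means. The part of depth in its changes was not tested.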
